A study of Mus musculus with 6 samples.

Results

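The genes described here encode the long and cross-linking proteins of the muscle sarcomere: Ttn, Neb and Nebl, the M-band genes Myom1, Myom2 and Myom3, and the myosin-binding genes Mybpc1, Mybpc2 and Mybph. They were found on the array by the RefSeq accession of each non-control probe, which gave 14 probes for all 9 genes, out of 39429 probes and 20659 named genes. Ttn had 4 probes, Neb and Mybpc1 had 2 each, and the other 6 genes had 1 each. Every probe is given separately, since probes of a long transcript need not read the same stretch of RNA.

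The cells were C2C12, an established mouse myoblast line that divides in serum-rich medium and can fuse into myotubes. Both groups grew in 10% serum. At 70 to 80% confluence they received siRNA, labelled "20 um", that was either a negative control (siRNA-NC) or directed at Meg3, an imprinted long non-coding RNA (siRNA-MEG3). The labels mention no switch to low serum and give no time of harvest. The comparison asks how these transcripts differ when Meg3 is targeted, on 3 single-colour Agilent arrays per group.

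In a sarcomere, titin reaches from the Z-disc through the elastic I-band to the M-band and holds the myosin filament in place, and nebulin lies along the actin filament. Nebulette, the product of Nebl, is a shorter relative of nebulin known mainly from the heart. Myomesins tie neighbouring myosin filaments together at the M-band, while the myosin-binding proteins C and H sit on the myosin filament itself. Such genes are switched on as myoblasts become myotubes, and myogenic bHLH factors and MEF2 factors are known regulators of that programme.

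Ttn, Myom1, Myom3 and Mybph passed the test described further on and have an entry in the RefSeq promoter table (GRCm38.p6), so the 250 bases before their start sites are shown. Neb and Myom2 are not in that table. Capitals mark the E-box CANNTG, the site type bound by bHLH factors, and the MEF2 motif; each pattern reads the same on both strands, and CAGCTG is 1 form of the E-box.
Ttn, chr2:76982548-76982797, - strand: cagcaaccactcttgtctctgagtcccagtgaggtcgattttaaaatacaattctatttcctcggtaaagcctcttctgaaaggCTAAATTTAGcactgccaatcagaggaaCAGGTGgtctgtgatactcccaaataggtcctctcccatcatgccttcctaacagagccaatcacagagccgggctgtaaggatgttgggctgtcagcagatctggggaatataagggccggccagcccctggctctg
Myom1, chr17:71019307-71019556, + strand: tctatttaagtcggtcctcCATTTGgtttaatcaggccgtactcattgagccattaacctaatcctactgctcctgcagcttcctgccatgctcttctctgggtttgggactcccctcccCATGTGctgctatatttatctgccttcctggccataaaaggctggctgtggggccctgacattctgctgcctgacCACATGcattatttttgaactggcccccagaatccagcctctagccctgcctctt
Myom3, chr4:135759465-135759714, + strand: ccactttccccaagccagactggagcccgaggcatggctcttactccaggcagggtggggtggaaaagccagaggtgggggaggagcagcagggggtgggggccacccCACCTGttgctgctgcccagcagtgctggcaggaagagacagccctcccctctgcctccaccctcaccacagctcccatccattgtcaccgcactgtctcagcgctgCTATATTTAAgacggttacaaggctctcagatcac
Mybph, chr1:134193198-134193447, + strand: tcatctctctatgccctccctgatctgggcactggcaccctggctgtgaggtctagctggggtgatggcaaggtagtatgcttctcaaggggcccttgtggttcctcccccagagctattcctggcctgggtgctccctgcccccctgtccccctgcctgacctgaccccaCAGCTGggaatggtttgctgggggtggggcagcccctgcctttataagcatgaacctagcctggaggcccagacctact

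The MEF2 motif was found in the Ttn window, starting 166 bases before the start site, and in the Myom3 window, starting 35 bases before it. It was in neither of the Myom1 and Mybph windows, and 2.92% of 32851 windows of that length held it. The Mybph window held a CAGCTG, starting 79 bases before the start site, as did 13% of all windows. So did the window of Mybpc1, which did not pass, 87 bases before its start site. An E-box of any form was in all 4 windows, once in Ttn, Myom3 and Mybph and 3 times in Myom1, but 66.2% of all windows held at least 1. Among members that did not pass or were not tested, the Mybpc1 window held 2, the Mybpc2 window 1 and 2 of the 4 Nebl windows 1 each, with no MEF2 motif in any of them. These matches describe the letters only.

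Between 70.1 and 75.2% of spots per control array read well above background, against 62.8 to 69.3% under siRNA-MEG3, and 0 spots were saturated. On siRNA-MEG3 arrays 1 and 3 single spots scattered together (r = 0.98) and siRNA-NC arrays 1 and 3 differed by no more than spot noise (variance ratio 1.04, where 1 is spot noise alone and siRNA-NC arrays 1 and 2 gave 159). The siRNA-MEG3 arrays all lay close by that measure: 1.33 for arrays 1 and 2, 1.45 for arrays 2 and 3 and 2.10 for arrays 1 and 3. Array 2 was kept as a sample of its own. Its spots did not scatter with those of array 1 (r = -0.17) or array 3 (r = -0.19), but whether it holds separate RNA is not known. The labels call all arrays of a group biological replicates. Arrays 1 and 3 of each group were nonetheless averaged and counted as 1 sample, leaving 2 samples per group. p-values therefore measure the spread between these samples, which may be technical. Each group was hybridised on a slide of its own, so the effects of slide and siRNA cannot be told apart. The target itself could not be checked: of 3 Meg3 probes, 1 was well above background, and that on a single array, siRNA-NC array 2. Its processed signal was 9.38 to 25.5 in the control group and 5.47 to 10.8 in the siRNA-MEG3 group. The other 2 Meg3 probes read 3.17 to 14.1 in the controls and 2.97 to 13.6 under siRNA-MEG3. Of these, A_52_P196568 read higher on siRNA-MEG3 arrays 1 and 3 (13.6 and 11.7) than on any siRNA-NC array (3.17 to 4.92).

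A probe was tested where every array of 1 group or of both read well above background. This held for 10 of the 14 probes, from 8 of the 9 genes; a probe dim in 1 group entered through the group where it was bright. Of the 10, 5 rose with siRNA-MEG3, none fell and 5 did not pass (limma, Benjamini-Hochberg over 26345 probes, threshold 0.05). Over all tested probes 1.37% passed, 0.998% as increases and 0.372% as decreases. The 5 probes that rose belong to 5 genes: Ttn, Neb, Myom1, Myom3 and Mybph. The median log2 fold change of the 10 was 2.76, beside 0.05 over all tested probes. Every siRNA-MEG3 array read above every siRNA-NC array for 9 of the 10, as for 28.7% of all tested probes. Fewer cells of a type and less RNA per cell cannot be told apart in such bulk samples. The members were chosen with earlier results known, and differences between members were not tested.

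**Figure D1:**
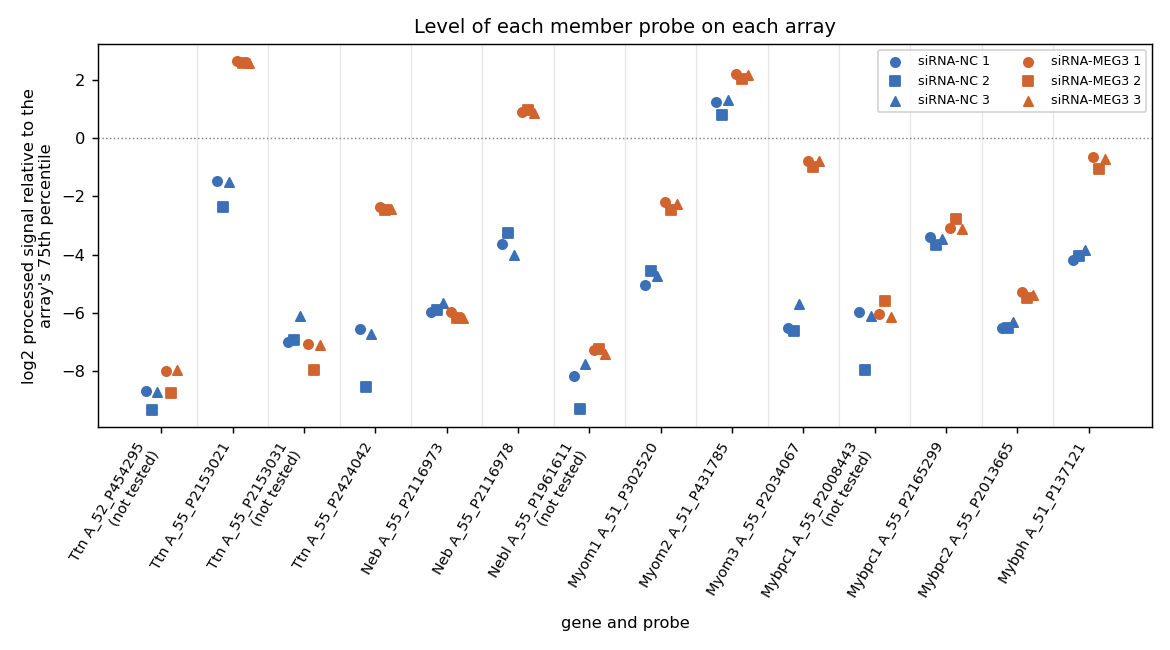
Each point is 1 array's log2 processed signal relative to that array's 75th percentile (vertical axis) for each of the 14 member probes (horizontal axis), blue for siRNA-NC and orange for siRNA-MEG3; shapes mark the array number. The orange points of Ttn A_55_P2153021, Neb A_55_P2116978, Myom3 and Mybph stand far above the blue ones, while those of Neb A_55_P2116973 lie level with or under them.

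Titin gave the widest range of readings within 1 gene. Levels below are the processed signal divided by the 75th percentile of that array, given in the order of arrays 1, 2 and 3. Probe A_55_P2153021, designed on NM_011652, read 0.365, 0.196 and 0.353 in the control group. Under siRNA-MEG3 it read 6.19, 6.03 and 6.0. The siRNA-MEG3 arrays lay close together and far above all siRNA-NC arrays, of which array 2 was the lowest. On the log2 scale the group means were -1.91 ± 0.62 with siRNA-NC and 2.60 ± 0.01 with siRNA-MEG3 (SD, n = 2 samples each). Ttn thus rose by 4.51 ± 0.36 (log2 fold change ± SE; limma adjusted p = 0.0266), a 22.9-fold difference, at rank 42 of 26345 from the largest increase. Without siRNA-NC array 2, which leaves a lone siRNA-NC sample assumed to vary like the other group, the value was 4.08. That fit gives no call for any probe, member or not, so only sizes are given from it.

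The probe on NM_028004, A_55_P2424042, was dim with siRNA-NC, at 0.0106, 0.00269 and 0.00943, and not well above background on any of those arrays. With siRNA-MEG3 it read 0.195, 0.181 and 0.185, well above background on all 3. With each siRNA-NC array set at no less than its lowest signal well above background, it was 19.1-fold higher on the processed signal. That figure is not a lower limit under other background corrections. The probe did not pass (log2 fold change 5.16 ± 0.68, limma adjusted p = 0.0617). The siRNA-NC samples differed from each other by an SD of 1.34 on the log2 scale for this probe, against 0.05 for the siRNA-MEG3 samples. It passed with the replicate block on the same 4 samples, with normexp, under quantile normalization and with dark patches left out. The fits with 5 or 6 samples, which count arrays 1 and 3 of a group separately, passed it too. It did not pass in the other fits with 2 or more samples in each group. With normexp, whose offset of 50 raises dim signals, its log2 fold change was smaller at 2.31. The fold changes of both probes were not shown to differ (difference -0.65 ± 0.43, limma adjusted p = 0.673 over 4289 probe pairs of 1 gene).

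The remaining Ttn probes, both on NM_011652, were not tested. A_55_P2153031 was well above background on siRNA-NC arrays 2 and 3 and on no siRNA-MEG3 array. Its levels were 0.00781, 0.00825 and 0.0145 in the controls, against 0.00754, 0.00405 and 0.00737 under siRNA-MEG3, so every array of the siRNA-MEG3 group was the lower. Its spot on siRNA-MEG3 array 1 lay in a dark patch, as described further on. A_52_P454295 had a processed signal of 2.91 to 3.54 with siRNA-NC and 2.98 to 4.76 with siRNA-MEG3, close to its own error estimate of 2.90 to 4.74. It gives no reading of Ttn in either group.

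Nebulin had 2 tested probes, both designed on NM_010889. A_55_P2116978 read 0.0810, 0.105 and 0.0629 in the control group, against 1.86, 1.93 and 1.80 under siRNA-MEG3. The groups did not overlap, and siRNA-NC array 2 was here the highest of its group. Neb rose on this probe by 4.44 ± 0.28 (limma adjusted p = 0.0232), a 21.7-fold difference, from a mean of -3.53 ± 0.39 to 0.91 ± 0.06 (log2, SD, n = 2 samples each), at rank 47 of 26345. Without siRNA-NC array 2 it stood at 4.72.

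The other Neb probe, A_55_P2116973, read 0.0160, 0.0167 and 0.0198 in the controls, against 0.0160, 0.0140 and 0.0138 under siRNA-MEG3. The groups overlapped. All 3 control arrays read it well above background, and of the siRNA-MEG3 arrays only array 2 did. Its log2 fold change was -0.26 ± 0.21 (limma adjusted p = 0.578), or 0.65 with normexp background correction. The Neb probes differed by 4.70 ± 0.33 on the log2 scale, which had an unadjusted p of 0.000121 and did not pass over all pairs (limma adjusted p = 0.123). Of the 4289 pairs 0 passed and 496 had an unadjusted p under 0.05, while 510 passed with all 6 arrays as 6 samples.

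Nebl was not well above background on any array. Its processed signal was 4.50, 3.60 and 5.71 in the controls, against 7.88, 8.43 and 6.87 under siRNA-MEG3, with error estimates of 3.04 to 4.77. The siRNA-MEG3 readings were all higher than the siRNA-NC readings, but with both groups below background no fold is given.

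**Figure D2:**
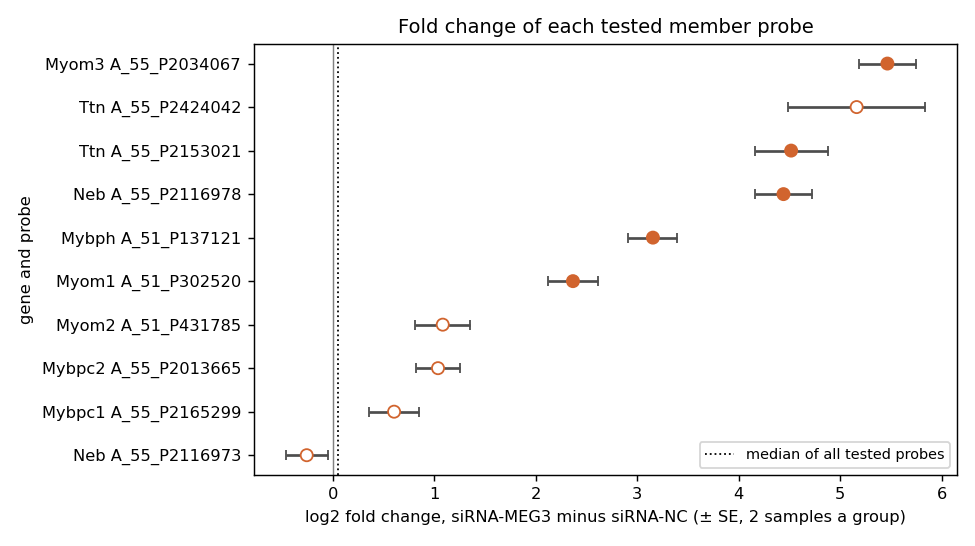
Points are the log2 fold changes of the 10 tested member probes with bars of 1 SE (horizontal axis), by gene and probe (vertical axis); filled points passed the test and open points did not. The 5 filled points lie from 2.37 to 5.46, right of the dotted median of all tested probes at 0.05.

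Of the M-band genes, Myom1 and Myom3 rose and Myom2 did not pass. Myom3, whose product is a myomesin of slow and intermediate fibres, had control levels of 0.0110, 0.0101 and 0.0195, against 0.583, 0.498 and 0.576 under siRNA-MEG3. It was well above background on 1 of the 3 siRNA-NC arrays, array 3, and on all 3 siRNA-MEG3 arrays. Myom3 rose by 5.46 ± 0.28 (limma adjusted p = 0.0188), a 44.1-fold difference against a group mostly at background; the probe entered the test through siRNA-MEG3. With siRNA-NC arrays set at no less than their lowest signal well above background it was 42.9-fold on the processed signal. That figure is not a lower limit under other background corrections. The log2 fold change of Myom3 was 3.22 with normexp and the spots under a bright speck left out. Without siRNA-NC array 2 it stood at 5.20.

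Myom1, which encodes the myomesin found in all striated muscle, read 0.0302, 0.0426 and 0.0373 in the controls, against 0.217, 0.179 and 0.207 under siRNA-MEG3. All 6 arrays were well above background and the groups did not overlap. Myom1 rose by 2.37 ± 0.25 (limma adjusted p = 0.0440), a 5.15-fold difference, at rank 260 of 26345. It lost that call when siRNA-NC array 3 was left out (2.44, limma adjusted p = 0.0521) and under quantile normalization (2.27, limma adjusted p = 0.0532). The replicate block on the same 4 samples (limma adjusted p = 0.0647), the deposited table (0.0926) and no filter on dim probes (0.114) ended the call too. Without siRNA-NC array 2, a fit that gives no call for any probe, Myom1 stood at 2.54. With that fit counted, 6 of 20 alternatives gave Myom1 no call.

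Myom2, the gene of M-protein, differed from these in that its probe was bright in both groups. It read 2.37, 1.72 and 2.50 in the controls, against 4.63, 4.12 and 4.51 under siRNA-MEG3. Each siRNA-MEG3 array was above every siRNA-NC array, but the log2 fold change of 1.08 ± 0.27, a 2.12-fold difference, did not pass (limma adjusted p = 0.162).

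Among the myosin-binding genes only Mybph passed. Its product, myosin-binding protein H, is a smaller relative of myosin-binding protein C. Mybph read 0.0553, 0.0609 and 0.0695 in the controls, against 0.636, 0.479 and 0.614 under siRNA-MEG3. All 6 arrays read it well above background, the groups did not overlap, and array 2 was the lowest of the siRNA-MEG3 arrays. Mybph rose by 3.15 ± 0.24 (limma adjusted p = 0.0254), an 8.90-fold difference, from -4.02 ± 0.02 to -0.87 ± 0.27 (log2, SD, n = 2 samples each), at rank 151 of 26345. Without siRNA-NC array 2 it stood at 3.14.

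Mybpc2, the fast-fibre gene of myosin-binding protein C, was dim in both groups. It read 0.0110, 0.0111 and 0.0127 in the controls, where arrays 2 and 3 were well above background, against 0.0259, 0.0222 and 0.0237 under siRNA-MEG3. The groups did not overlap, yet the log2 fold change of 1.04 ± 0.21, a 2.05-fold difference, did not pass (limma adjusted p = 0.127).

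Mybpc1, the slow-fibre gene, had the smallest difference among the genes with a tested probe when each is taken at its brightest probe. A_55_P2165299, on NM_001252372, read 0.0947, 0.0790 and 0.0906 in the controls, against 0.117, 0.145 and 0.116 under siRNA-MEG3, well above background throughout. Its log2 fold change was 0.60 ± 0.24 (limma adjusted p = 0.291), a 1.52-fold difference with no overlap between the groups. A_55_P2008443, on NM_175418, was well above background on siRNA-MEG3 array 2 only and was not tested. Its processed signal was 9.05 to 20.7 with siRNA-NC and 16.5 to 26.4 with siRNA-MEG3, so the groups overlapped.

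Dark patches, blocks in which over 5% of the spots bright with siRNA-NC read more than 4-fold below their siRNA-NC mean, took up 33.9 and 25.0% of siRNA-MEG3 arrays 1 and 3 and 5.95% of array 2. The spots of Mybph and of Mybpc1 A_55_P2165299 lay in such patches on arrays 1 and 3, and those of Myom1 and Mybpc2 on array 1. Of the untested probes, Nebl and Ttn A_52_P454295 lay in them on arrays 1 and 3. The bright probes of Ttn and Neb, Myom2 and Myom3 lay outside them on every array. With patch spots left out, which removes Mybph and Mybpc1 from the test, 5 member probes passed: Ttn (both tested probes), Neb, Myom1 and Myom3. Ttn A_55_P2424042 then stood at 5.15 (limma adjusted p = 0.0428).

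Both the calls and the sizes of the 5 member probes moved with the processing. All 5 kept their direction under each of the 20 alternatives that could be fitted for them (19 for Myom3 and Mybph). Without a filter on dim probes none passed, with limma adjusted p from 0.0529 for Myom3 to 0.114 for Myom1, and 5273 of 38916 probes had an unadjusted p under 0.05. In the authors' deposited log2 values Neb and Myom3 passed, while Ttn (4.39, adjusted p = 0.0625), Myom1 (2.11, adjusted p = 0.0926) and Mybph (2.84, adjusted p = 0.0508) did not. With normexp and the speck spots left out all 5 passed at smaller sizes: Ttn at 4.35, Neb at 3.90, Myom3 at 3.22, Mybph at 2.50 and Myom1 at 1.67. With all 6 arrays taken as 6 samples 9 member probes passed, all higher. Of 26173 probes 4320 were then higher and 2616 lower, and the averaged pairs count more than once.

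**Figure D3:**
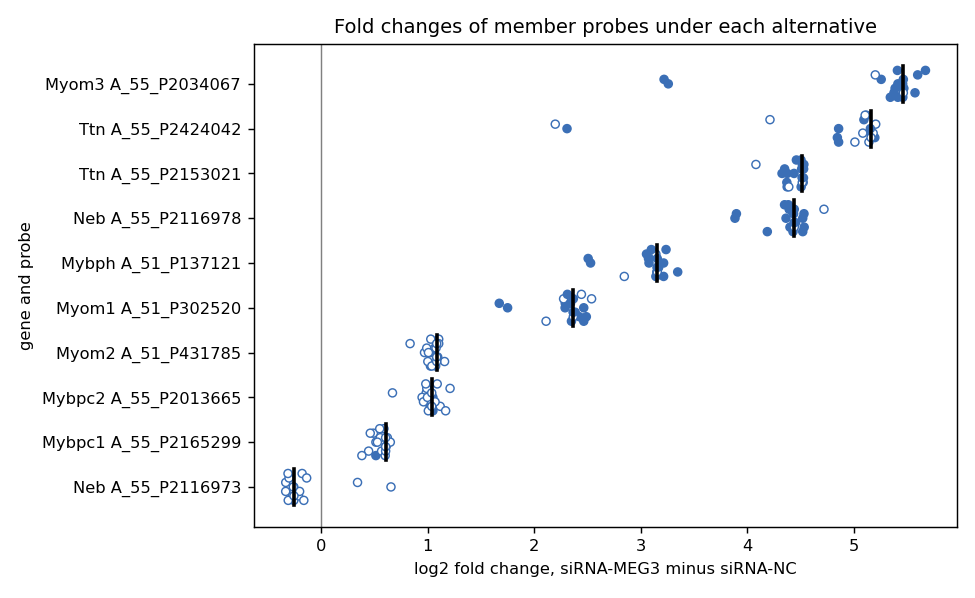
Each point is the log2 fold change of a tested member probe (horizontal axis) under 1 alternative way of processing, by gene and probe (vertical axis); filled points passed the test, open points did not, and black bars are the values reported in the text. The points of Neb A_55_P2116973 lie on both sides of 0, from -0.33 to 0.65, and those of the other 9 probes are all above 0.

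Genes whose products bind titin, nebulin or the M-band were read from the same fit, on the brightest tested probe of each. Of 56 such genes in 5 lists, 50 were tested: 10 rose, none fell and 40 did not pass, where 1.03% of all genes rose on their brightest probe and 0.394% fell. Their median log2 fold change was 0.62. The calls lay in the lists for the Z-disc end and for the thin filament. Of the genes that rose, Myoz2, Myot, Lmod2, Tmod1, Klhl41 and Xirp2 entered the test only through siRNA-MEG3, the group where they were bright. When only probes well above background on all 6 arrays were tested, 4 partner genes rose. Calls of partner genes are not given here for the fits without array 2 of either group, since each leaves a lone sample there.

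At the Z-disc end, where titin and nebulin are anchored, 4 of 11 tested genes rose and 7 did not pass (median 1.55). Pdlim3, an actinin-binding protein gene of the Z-disc, rose by 7.01 ± 0.22 (limma adjusted p = 0.0188). Myoz2 and Myot, the genes of a calcineurin-binding Z-disc protein and of myotilin, were not well above background on any siRNA-NC array. Both rose (limma adjusted p = 0.0188 and 0.0280). With siRNA-NC arrays set at no less than their lowest signal well above background, their increases were 18.5-fold and 3.76-fold on the processed signal. The remaining gene that rose, named after its value was seen, was Csrp3 (3.13 ± 0.21, adjusted p = 0.0234), which encodes muscle LIM protein. Tcap, whose product caps the Z-disc end of titin, stood at 2.35 ± 0.32 and did not pass (adjusted p = 0.0652).

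Among thin filament partners of nebulin 6 of 17 tested genes rose and 11 did not pass (median 0.74). Cardiac actin gene Actc1, the actin made early in skeletal muscle differentiation, rose by 7.15 ± 0.57 (limma adjusted p = 0.0266); its spot on siRNA-MEG3 array 1 was marked as an outlier, so array 3 alone stood for that sample. The leiomodin gene Lmod3, which helps actin filaments form, rose by 4.03 ± 0.31 (adjusted p = 0.0254). Its relative Lmod2 rose (adjusted p = 0.0217) but was not well above background on any siRNA-NC array. With those arrays set at no less than their lowest signal well above background, Lmod2 was 3.79-fold higher on the processed signal. The other genes that rose, named after their values were seen, were Klhl41, Tmod1 and Xirp2, at 3.50, 2.64 and 1.85 (adjusted p = 0.0232, 0.0465 and 0.0475). They were well above background on 2, 1 and 2 of the 3 siRNA-NC arrays. Skeletal actin gene Acta1 stood at 0.72 ± 0.21 and did not pass (adjusted p = 0.199).

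None of 9 tested genes along the I-band of titin passed (median 0.24), among them the stretch-linked genes Ankrd1 at 1.32 ± 0.22 and Ankrd2 at 0.03 ± 0.64 (limma adjusted p = 0.0920 and 0.987). None of 8 tested M-band partners passed either (median -0.44), with Obsl1 at 0.93 ± 0.24 and Cmya5 at -1.11 ± 0.37 (adjusted p = 0.171 and 0.231). The largest increase of that list, named after its value was seen, was Ckm at 1.77 ± 0.25 (adjusted p = 0.0681). The 5 tested myosin-binding relatives had no call (median 0.36), and cardiac Mybpc3 stood at -0.08 ± 0.32 (adjusted p = 0.931). Apart from Ckm, these genes without a call were picked for naming by their roles.

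**Figure D4:**
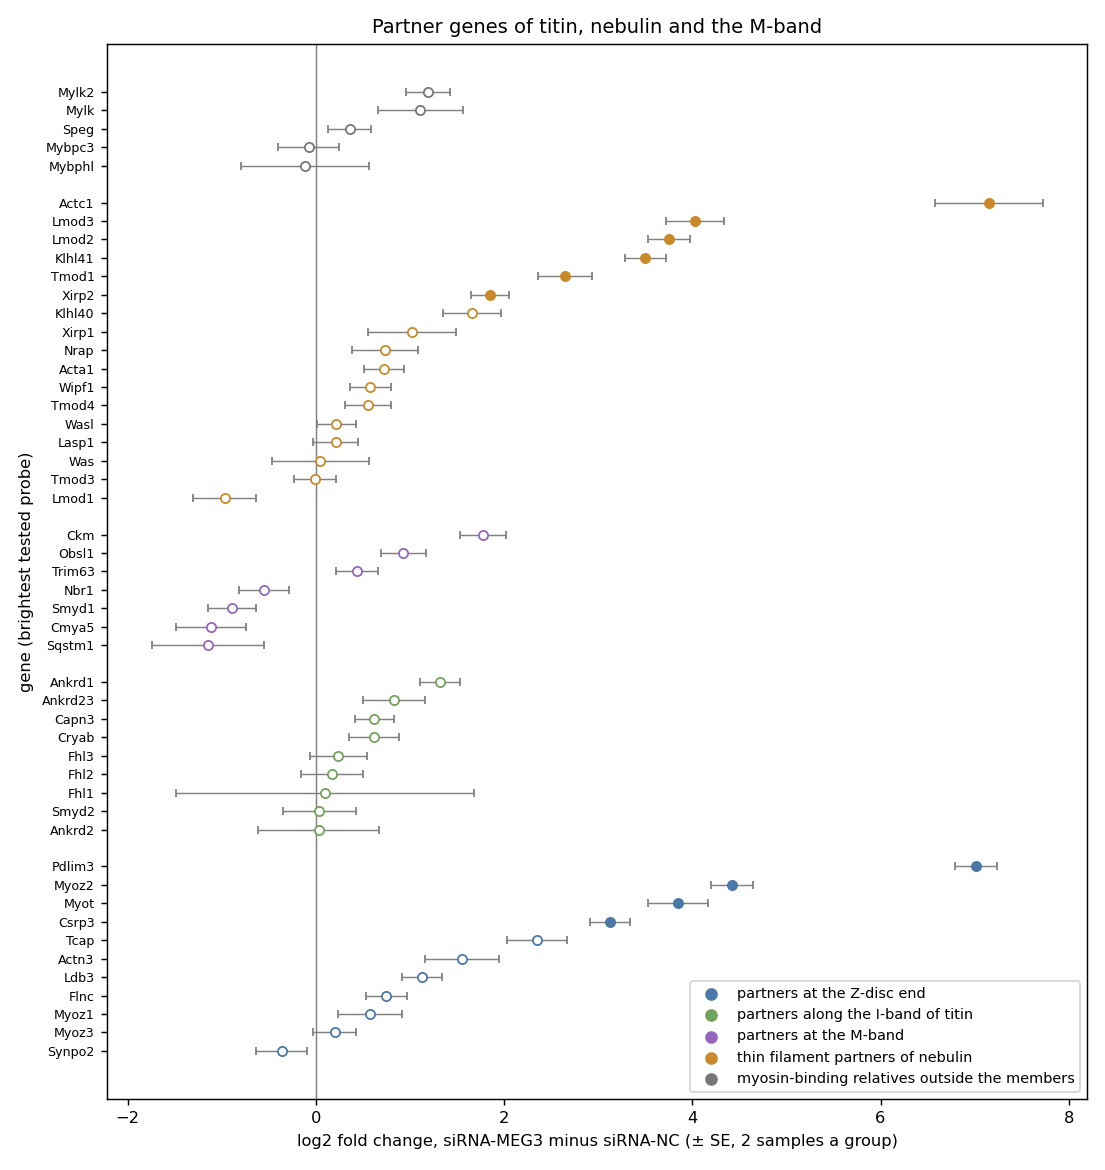
Points are the log2 fold changes of partner genes (all but 1 of the 50 tested) on their brightest tested probe with bars of 1 SE (horizontal axis), grouped by list in colour (vertical axis); filled points passed the test and open points did not. The 10 filled points lie between 1.85 and 7.15, in the Z-disc and thin filament lists.

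The genes whose pattern over the 4 samples lay nearest to the bright Ttn probe were Tnnc2, Myl4, Tnni2, Srpk3 and Tmprss11f, out of 15358 named genes outside the members. Their root mean square difference from Ttn was 0.06, 0.11, 0.12, 0.12 and 0.15 on the log2 scale, each probe centred on its own mean. Their log2 fold changes were 4.40, 4.30, 4.48, 4.70 and 4.27, beside 4.51 for Ttn. With 2 samples per group, such nearness largely restates a similar fold change and was not tested. Tnnc2 and Tnni2 encode fast troponin subunits and Myl4 a myosin light chain. None of the 5 genes is in the partner lists.

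Marker genes were read beside these results. Of 6 tested myocyte and myotube markers 3 rose, Myog, Mymx and Myh3 (log2 fold changes 3.46, 3.80 and 7.05; limma adjusted p = 0.0232, 0.0266 and 0.0254). Mymk, Ckm and Cdkn1a did not pass, at 2.92, 1.77 and 0.59 (limma adjusted p = 0.0513, 0.0681 and 0.309). Another tested probe of Cdkn1a stood at -1.28, and Mef2c was not tested. The summed level of the 6 tested myocyte and myotube markers was 6.88 to 9.02 with siRNA-NC and 29.2 to 30.8 with siRNA-MEG3. None of 6 tested markers of dividing myoblasts passed. The myoblast regulators Myod1 and Myf5 stood at 2.29 ± 0.43 and -2.87 ± 0.41 (limma adjusted p = 0.113 and 0.0729), and both read above background on each array. So did Cdh15, Itga7 and Vcam1, at 1.41, 0.82 and 0.31, with another Vcam1 probe at -0.02. Pax7 stood at -0.29 and was well above background on 3 siRNA-NC arrays and 1 siRNA-MEG3 array. Msc was not well above background on any array. The summed level of the 6 tested markers of dividing myoblasts was 29.2 to 33.6 with siRNA-NC and 44.9 to 46.1 with siRNA-MEG3.

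Of 5 tested cardiac markers only Ryr2 rose (2.69 ± 0.20, limma adjusted p = 0.0254), and their summed level was 0.142 to 0.168 with siRNA-NC and 0.315 to 0.327 with siRNA-MEG3. None of the tested markers of smooth muscle (5), adipocytes (5), osteoblasts (4), fibroblasts (4) or macrophages (3) passed. Some of their summed levels were nonetheless higher on every siRNA-MEG3 array. The fibroblast sum was 62.2 to 108 in the controls and 122 to 143 under siRNA-MEG3. For adipocytes it was 0.974 to 1.42 against 1.53 to 1.61, and for macrophages 0.350 to 0.465 against 0.602 to 0.631. Single markers of these lists went both ways in log2 fold change. Macrophage markers Adgre1 and Ptprc stood at -0.33 and -0.29, and Csf1r at 0.81. Adipoq and Plin1 of the adipocyte list stood at -1.08 and -1.14, and Cidec, Fabp4 and Pparg at 1.00, 0.67 and 0.37. In the fibroblast list Pdgfra stood at -0.67, and Col1a1, Thy1 and Lum at 0.72, 0.38 and 0.10. The smooth muscle sums (111 to 181 against 148 to 159) and osteoblast sums (0.0878 to 0.117 against 0.101 to 0.189) overlapped. The smooth muscle myosin gene Myh11 and the fibroblast gene Dpt were not well above background on any array. The part of the marker genes in the member results was not tested.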

How the data were processed

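RNA from C2C12 cells was hybridised to 6 single-colour Agilent mouse arrays. The deposited scanner files hold, per the file headers, output of Agilent Feature Extraction 11.0.1.1: a processed signal intensity, background-subtracted and detrended within each array, and median spot and background intensities. The authors' deposited series table holds log2 values for 30732 probes; per the labels' protocols, repeated probes were averaged and the normalization factor came from probes that reached an intensity of 30 in every sample. Other steps are not given in the sources used here.

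Control spots and outlier spots (non-uniform or population) were left out, spots of a probe were averaged as log2 processed signal, and each array was expressed relative to its 75th percentile over 39429 probes. Of these, 27234 were named through RefSeq accessions (GRCm38.p6 table) and 12195 were not. The array design names an older build, so no probe coordinates are given.

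Array pairs were compared on 227 probes printed 10 times with at least 8 clean spots. The test was limma 3.58.1 in R 4.3.3 (lmFit, eBayes, 2-sided, group as the only term, 2 residual and 2.31 prior degrees of freedom) on 26345 probes, and pairs of probes of 1 gene by the same fit on their difference. The fit was tested on simulated data. Groups have 3 arrays each, whose number limits precision. Alternatives covered the samples, background, scaling, filters, dark patches and 1 probe a gene.

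The members, lists and tests were chosen with earlier results of these data known. All 9 members and their probes were named. Partner genes were named by up to 3 largest calls per list and direction. Other names are marked, except Tcap and Acta1, which had no call and were named outside that rule. A single partner gene is counted in its list and not reported here. Replicate numbers did not pair the arrays.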

Additional observations from a re-analysis of the deposited data

How the results depend on the processing

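Of 192 values of single member probes under an alternative, 160 kept their direction and their side of the threshold, 16 no longer passed, 14 newly passed and 2 changed sign. Both sign changes were Neb A_55_P2116973, at 0.65 with normexp and 0.34 with normexp and the speck spots left out; the cause was not tested.

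All 6 arrays as 6 samples gave 4320 probes higher and 2616 lower, of 26173 tested. That setting gave 9 member probes higher, 25 partner genes higher and 2 lower, and 510 probe pairs. Averaging only the repeat scan (5 samples) gave 1307 and 943 of 26304 probes, with 16 partner genes. Near-identical arrays shrink the spread in these fits by construction. No numbering pairs the arrays: same-numbered arrays of the groups correlated at -0.04 to -0.03, and no array correlated best with its own number. With the replicate block, 6 samples gave 2176 and 1447 of 26173 probes, 8 member probes and 19 partner genes. With it, 4 samples gave 189 and 72 of 26345 probes, 5 member probes and 8 partner genes. There Myom1 lost its call and Ttn A_55_P2424042 gained a call.

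Normexp gave 6 partner genes higher and a member median of 2.03; without the speck spots it gave 169 probes higher, 6 partner genes and a median of 1.93. The median of all tested probes moved to 0.28 and 0.17 there, so member values are best read relative to it. The labels' factor gave 65 probes lower. The deposited table gave 137 higher and 21 lower, 86.7% higher against 72.9% of the 263 and 98 calls reported; 2 member probes and 5 partner genes passed and the member median was 2.11. Without a filter on dim probes 0 probes were higher and 0 lower by limma, so 0 member probes and 0 partner genes passed, and the member median was 1.25 over all 14 probes. Only probes well above background on all 6 arrays left 4 partner genes. With dark patches left out 148 probes were lower, 6 partner genes passed and the median was 3.39.

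Leaving out each array gave 0 to 1370 probes higher and 0 to 1768 lower, 0 to 6 member probes, 0 to 14 partner genes and a member median of 2.29 to 2.92. Both extremes of the counts come from fits that lack array 2 of either group and so have a lone sample there. Signal over background limits Nebl, 2 of the Ttn probes and 1 Mybpc1 probe, which allow no comparison.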
